A study of Mus musculus with 7 samples.

Results

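The BMP/TGF-beta pathway was followed through 10 of its genes in bone marrow-derived macrophages (BMDMs) of the mouse: the ligand gene Tgfb1, the receptor genes Acvrl1 and Bmpr2, the receptor-activated SMAD genes Smad1 and Smad3, the inhibitory SMAD genes Smad6 and Smad7, and the ID genes Id1, Id2 and Id3. They are 10 of the 48440 genes of an LPS table and of the 55352 genes of an adeno-associated virus (AAV) table. The genes were selected on their measured values in both experiments, so their own differences are given as a description, with no test. In AAV-Shisa3 transduced BMDMs, Id1 was 6.16-fold, Id3 3.21-fold and Id2 1.48-fold the AAV-GFP mean, Smad6 and Smad7 were 3.37-fold and 2.70-fold, and Smad3 was 1.65-fold lower. After 4 h of LPS, the ID genes were 4.82-fold to 7.92-fold higher and Smad3 was 9.14-fold lower than at 0 h, whereas Smad6 was 2.31-fold lower.

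In the first experiment, wild-type BMDMs were left without treatment (0 h) or given LPS, an outer membrane component of Gram-negative bacteria, at 100 ng per mL for 2 h or 4 h, each time point being 1 library. The other experiment used BMDMs 48 h after transduction with AAV-GFP, as the control, or AAV-Shisa3, and has 2 samples per group. The AAV-GFP samples are labelled wild-type, and the AAV-Shisa3 samples carry the genotype label Shisa3 overexpression. All cells were grown from bone marrow with the growth factor M-CSF at 20 ng per mL, and the AAV vector drove its insert from a CAG promoter, which is active in most cell types. No label ties the samples to separate mice or cultures, so the spread within a group may be technical.

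Ligands of this family bring type I and type II receptors together at the cell surface, and the type I receptor then phosphorylates receptor-activated SMADs. TGF-beta and activin receptors act mainly on SMAD2 and SMAD3, and BMP receptors on SMAD1, SMAD5 and SMAD9, which enter the nucleus with SMAD4. The ID genes are among the best known direct BMP target genes. ID proteins lack a DNA-binding region and hold E proteins in inactive pairs, while SMAD6 and SMAD7 are induced by the pathway and dampen it.

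Promoter sequence is shown for Id2 and Id3 because SMADs act at the promoters of ID genes and because these members differ in the SMAD motifs that their windows hold. RefSeq windows on GRCm38.p6 were at hand for 7 of the 10 genes, found by symbol. Each window is the 250 bases upstream of the annotated start, written 5′ to 3′ on the strand of the gene. The motifs searched, on both strands, were the SMAD box CAGAC and the GC-rich element GGCGCC, neither of which contains the other, and capitals mark the matches. The window of Id3 is chr4:136143572-136143821 on the plus strand, and that of Id2 is chr12:25096093-25096342 on the minus strand.
Id3: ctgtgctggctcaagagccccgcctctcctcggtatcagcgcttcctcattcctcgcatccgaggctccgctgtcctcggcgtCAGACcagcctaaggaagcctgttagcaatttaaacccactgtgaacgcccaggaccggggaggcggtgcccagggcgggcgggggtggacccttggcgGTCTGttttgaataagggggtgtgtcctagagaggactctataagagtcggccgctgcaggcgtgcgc
Id2: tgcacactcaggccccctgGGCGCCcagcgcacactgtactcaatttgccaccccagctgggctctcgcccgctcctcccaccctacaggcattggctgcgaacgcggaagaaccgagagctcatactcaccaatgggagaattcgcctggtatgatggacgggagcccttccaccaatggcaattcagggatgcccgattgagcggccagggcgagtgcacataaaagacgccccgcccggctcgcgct
The Id3 window held 2 SMAD boxes, the first of them starting 167 bases and the other 68 bases upstream of the start. The Id2 window held no SMAD box and 1 GC-rich element, which starts 231 bases upstream. Among the 7 windows, 1 held a SMAD box, 2 held the GC-rich element (Id2 and Bmpr2) and 4 held neither. Of 32851 windows of the same length in the RefSeq table, 42.2% held a SMAD box and 9.6% the GC-rich element, so a match is a description of the letters and not a binding site.

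The labelled cell type was checked first. All 8 macrophage markers, among them Adgre1, Csf1r and Cd68, were at or above 1 TPM in each of the 4 AAV samples, with a summed level of 34736 to 36801 TPM in AAV-GFP and 35865 to 38318 TPM in AAV-Shisa3. Most of that sum was Lyz2. Markers of other cells were lower and some moved with the groups. The 7 neutrophil markers summed to 500 to 532 TPM in AAV-GFP and to 575 to 928 TPM in AAV-Shisa3, and the 5 megakaryocyte markers to 693 to 819 and 881 to 1132 TPM, nearly all of it Pf4. Most of the neutrophil sum was S100a8 and S100a9. S100a8 measured 165 and 165 TPM in AAV-GFP and 290 and 185 TPM in AAV-Shisa3. S100a9 measured 347 and 312 TPM in AAV-GFP and 602 and 361 TPM in AAV-Shisa3. The 7 endothelial markers summed to 12.1 to 12.4 and 10.0 to 10.8 TPM, with Tek, Tie1, Emcn and Esam under 1 TPM. The 7 fibroblast markers summed to 13.4 to 17.5 and 10.3 to 14.0 TPM, the 4 B cell markers to 11.8 to 13.7 and 8.05 to 9.51 TPM, and the 3 T cell markers were listed at 0. Their part in the results was not tested, and in bulk RNA fewer cells of a type and less RNA per cell cannot be told apart.

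The transduced gene itself, Shisa3, measured 7.88 and 10.9 TPM in AAV-GFP and 12.3 and 17.8 TPM in AAV-Shisa3, a log2 difference of 0.63 (SE 0.22). Both AAV-Shisa3 samples lay above both AAV-GFP samples. In the LPS libraries 1, 164 and 3174 reads of Shisa3 were counted at 0 h, 2 h and 4 h.

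The first question was how the pathway genes stood in AAV-Shisa3 transduced BMDMs. Levels are in TPM, a share of all transcripts that takes transcript length into account and lets genes be compared within a sample. Differences are on the scale of log2(TPM + 1), which understates those of low genes, and their standard errors (SE) come from a limma fit of the 11218 genes whose mean reached 1 TPM. The median difference of all these genes was -0.10. All 10 genes passed the filter, Smad7 only through the AAV-Shisa3 samples.

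Tgfb1 (ENSMUSG00000002603.15), which encodes the ligand TGF-beta1, measured 248 and 278 TPM in AAV-GFP and 247 and 273 TPM in AAV-Shisa3. The groups overlapped, and the log2 difference was -0.02 (SE 0.09), or 0.10 once each sample was centred on its median.

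Acvrl1 (ENSMUSG00000000530.16) encodes ALK1, a type I receptor known from endothelial cells. It measured 73.2 and 75.7 TPM in AAV-GFP and 64.6 and 63.7 TPM in AAV-Shisa3, a log2 difference of -0.21 (SE 0.08), or -0.10 after centring. Both AAV-Shisa3 samples were below both AAV-GFP samples by a small margin. Bmpr2 (ENSMUSG00000067336.6), the type II BMP receptor gene, measured 2.81 and 4.15 TPM in AAV-GFP and 2.98 and 3.75 TPM in AAV-Shisa3. Its groups overlapped, with a log2 difference of -0.03 (SE 0.21) that became 0.09 after centring.

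Of the receptor-activated SMAD genes, Smad3 was lower with AAV-Shisa3 and Smad1 differed little. Smad1 (ENSMUSG00000031681.15) measured 13.9 and 12.9 TPM in AAV-GFP and 14.9 and 14.7 TPM in AAV-Shisa3, with a log2 difference of 0.13 (SE 0.11). Smad3 (ENSMUSG00000032402.12) measured 13.9 and 14.9 TPM in AAV-GFP and 8.42 and 9.04 TPM in AAV-Shisa3, a log2 difference of -0.66 (SE 0.11). Both genes had nearly the same level in AAV-GFP, where Smad1 was 1.00 and 0.864 times Smad3, and in AAV-Shisa3 Smad1 was 1.76 and 1.63 times Smad3.

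The inhibitory SMAD genes were both higher with AAV-Shisa3. Smad6 (ENSMUSG00000036867.7), whose protein acts mainly on the BMP branch, measured 2.65 and 3.36 TPM in AAV-GFP and 7.51 and 12.7 TPM in AAV-Shisa3, a log2 difference of 1.44 (SE 0.25). The AAV-Shisa3 samples differed more from each other than the AAV-GFP samples did. Smad7 (ENSMUSG00000025880.11), whose protein acts on both branches, measured 0.820 and 0.780 TPM in AAV-GFP and 1.84 and 2.48 TPM in AAV-Shisa3, a log2 difference of 0.80 (SE 0.21). It was the lowest of the 10 genes in both groups, and with a pseudocount of 0.1 its difference was 1.31.

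All 3 ID genes were higher with AAV-Shisa3, each by a different amount. Id1 (ENSMUSG00000042745.9) measured 13.0 and 18.7 TPM in AAV-GFP and 101 and 93.6 TPM in AAV-Shisa3, a log2 difference of 2.57 (SE 0.17). Id3 (ENSMUSG00000007872.3) measured 22.8 and 30.0 TPM in AAV-GFP and 83.3 and 86.4 TPM in AAV-Shisa3, a log2 difference of 1.66 (SE 0.14). Id2 (ENSMUSG00000020644.8) measured 199 and 162 TPM in AAV-GFP and 242 and 290 TPM in AAV-Shisa3, a log2 difference of 0.56 (SE 0.13). The gene with the lowest starting level thus had the largest difference of the ID genes, and the gene with the highest had the smallest. Id1 made up 5.55% and 8.88% of the summed TPM of Id1, Id2 and Id3 in AAV-GFP and 23.8% and 19.9% in AAV-Shisa3. Its ratio to Id3 was 0.569 and 0.623 in AAV-GFP and 1.22 and 1.08 in AAV-Shisa3, so the order of Id1 and Id3 was opposite in the groups.

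**Figure D1:**
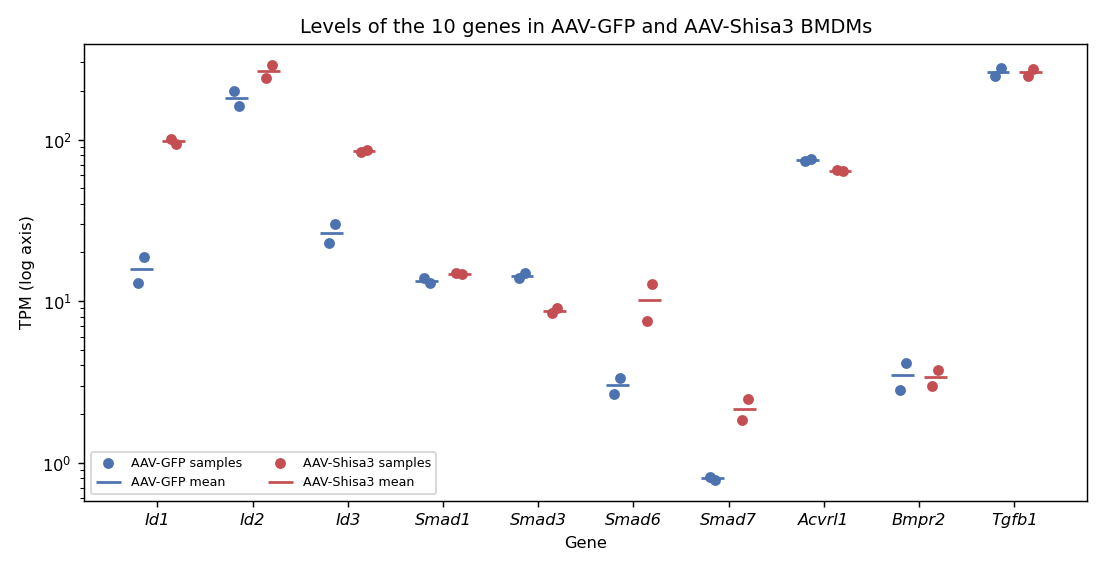
TPM of the 10 genes (log axis) in each AAV-GFP and AAV-Shisa3 sample (points) with the group mean (line). Id1, Id3, Smad6 and Smad7 stand clearly apart between the groups, while the points of Tgfb1 and Bmpr2 overlap.

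Read by level, the order of the genes differed between the groups. In AAV-GFP it ran from Tgfb1 (263 TPM) through Id2 (180 TPM), Acvrl1 (74.4 TPM), Id3 (26.4 TPM), Id1 (15.8 TPM), Smad3 (14.4 TPM), Smad1 (13.4 TPM), Bmpr2 (3.48 TPM) and Smad6 (3.01 TPM) to Smad7 (0.80 TPM). Neighbours whose samples overlapped were Id1 with Smad3, Smad3 with Smad1, and Bmpr2 with Smad6. In AAV-Shisa3 Id2 (266 TPM) and Tgfb1 (260 TPM) overlapped at the top, Id1 (97.5 TPM) and Id3 (84.8 TPM) lay above Acvrl1 (64.1 TPM), and Smad6 (10.1 TPM) overlapped with Smad3 (8.73 TPM).

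Counted by order alone, 6 of the 10 genes had both AAV-Shisa3 samples above both AAV-GFP samples, 2 had both below and 2 overlapped. Among all 11218 genes, 18.2% were above and 41.2% below in this way. Since the contrast was used to choose the 10 genes, nothing is read from the comparison. Ranked by log2 difference from the highest, Id1 stood at 7, Id3 at 25, Smad6 at 34, Smad7 at 184 and Id2 at 411 among the 11218 genes, and Smad3 was 441 from the lowest.

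The rest of the pathway was then taken from 7 lists with 112 genes: other ligands, receptors and co-receptors, other SMADs, Id4 and the E proteins, ligand antagonists and latency proteins, intracellular regulators of SMADs, and further SMAD target genes. Of these, 46 passed the filter and were tested with limma, and 3 rose and 3 fell at an adjusted p under 0.05. The lists were chosen with earlier results of these data known, so these calls are not an independent test of the pathway. Over all genes, 2.23% rose and 4.1% fell. The median log2 difference of the 46 genes was -0.07, beside -0.10 for all genes. After centring on sample medians, 4 rose and 1 fell, while over all genes 410 rose and 230 fell, beside 250 and 460 before centring. Calls over all genes also dropped, to 1 higher and 4 lower without the variance trend and to 0 and 0 with no filter. Loss of calls under these settings was thus not particular to the pathway genes. Every one of the 6 calls was lost when any 1 of the 4 samples was left out, when the variance trend was dropped and when no filter was used.

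The genes that rose were Tgfbi, Furin and Skil. Tgfbi, a matrix protein gene named for its induction by TGF-beta, went from 88.1 and 67.8 TPM to 220 and 189 TPM (log2 difference 1.39, SE 0.14, adjusted p = 0.0174). Furin, the protease that cleaves TGF-beta precursors, went from 30.3 and 36.4 TPM to 58.4 and 62.2 TPM (0.84, SE 0.11, adjusted p = 0.0232). Skil encodes SnoN, a repressor of SMAD transcription that is itself a TGF-beta target, and went from 30.8 and 32.3 TPM to 44.1 and 51.3 TPM (0.58, SE 0.10, adjusted p = 0.0377).

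The genes that fell were Nedd4l, Gdf15 and Tgfbr2. Nedd4l, a ubiquitin ligase that acts on activated SMAD2 and SMAD3, went from 8.67 and 8.56 TPM to 4.46 and 4.63 TPM (log2 difference -0.79, SE 0.13, adjusted p = 0.0296). Gdf15, a distant member of the ligand family, went from 49.4 and 34.9 TPM to 22.5 and 21.3 TPM (-0.89, SE 0.17, adjusted p = 0.0409). Tgfbr2, the type II TGF-beta receptor gene, went from 28.9 and 34.8 TPM to 20.1 and 21.0 TPM (-0.60, SE 0.12, adjusted p = 0.0441).

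Spread over the lists, the calls were few in each. Only 2 of 32 other ligand genes were tested, since most lay under the filter, and 1 fell. Among 15 receptors and co-receptors, 7 were tested and 1 fell. The other SMADs had 3 of 4 genes tested with none past the threshold. Smad2, the partner of Smad3 in the TGF-beta branch, measured 47.9 and 49.1 TPM in AAV-GFP and 36.8 and 37.5 TPM in AAV-Shisa3 (log2 difference -0.38, adjusted p = 0.0546). The adjusted p of Smad2 ran from 0.0446 to 0.232 over the alternatives, and it passed the threshold with at least 1 TPM in every sample and with the replicate block. In other lists, Wwp1 (log2 difference -0.45, limma adjusted p = 0.0505) and Itgav (0.42, adjusted p = 0.0772) also passed under some alternatives. Of the E protein genes Tcf3, Tcf4 and Tcf12, whose products ID proteins bind, none passed the threshold, with adjusted p of 0.975, 0.697 and 0.291. Id4 was at most 0.02 TPM in each AAV sample. Among 25 antagonists and latency or activation proteins 10 were tested and 1 rose, among 18 intracellular regulators 15 were tested with 1 higher and 1 lower, and among 18 further targets 9 were tested and 2 rose, Skil being in both lists. Pmepa1, a TGF-beta target whose product blocks SMAD activation, was under the filter, with 0.16 and 0.06 TPM in AAV-GFP and 0.59 and 1.52 TPM in AAV-Shisa3.

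**Figure D2:**
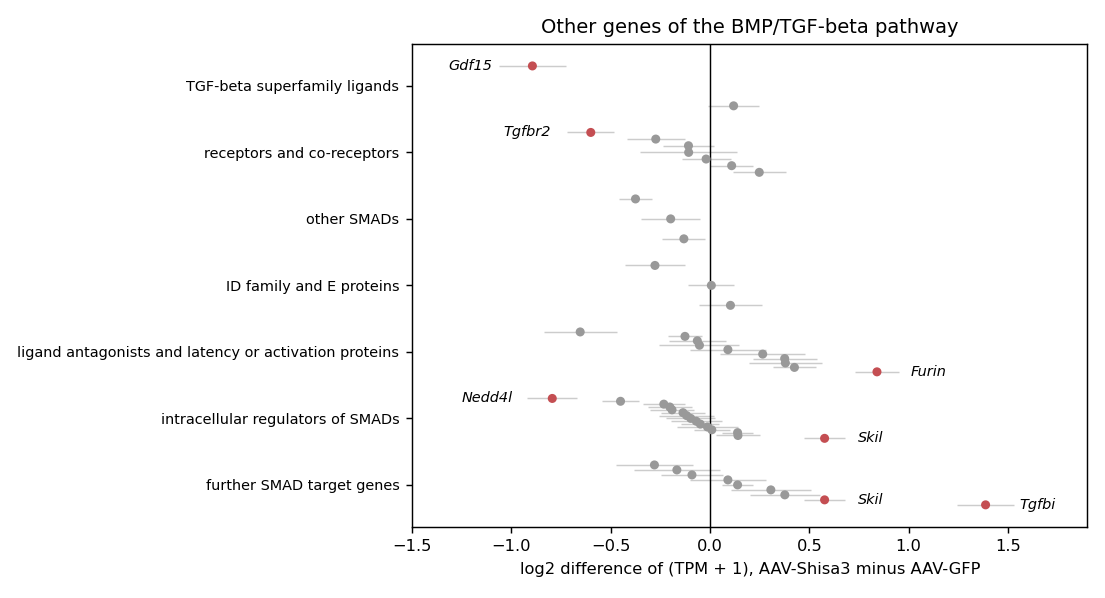
Log2 difference of (TPM + 1), AAV-Shisa3 minus AAV-GFP, for the 46 tested genes of the 7 pathway lists, with bars of 1 SE from limma. Red points are the 6 genes with an adjusted p under 0.05, and Skil appears in 2 lists.

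The second question was how the same genes moved with LPS. Each deposited LPS value is a number of reads over a scaling factor of that library. Depth differed, with 15588502 reads (0 h), 7263258 reads (2 h) and 32659392 reads (4 h). Comparing values between libraries relies on these factors being right. Values are not comparable between genes, because they are not corrected for length. A single library per time point allows no test, and the intervals beside folds are exact 95% intervals for a ratio of counts, which cover counting error only. Scaling mattered here: the median log2 difference of all genes at 4 h was -0.04 with the authors' factors, 0.33 with libraries centred on their medians and -0.82 with reads scaled to library totals.

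Tgfb1 measured 1568 at 0 h (2438 reads), 1596 at 2 h (731 reads) and 1172 at 4 h (2156 reads). The fold was 1.02 (0.936 to 1.11) at 2 h, where it turned to 0.644 with library totals, and 0.747 (0.705 to 0.792) at 4 h. At 4 h the log2 difference was -0.42 with the authors' factors, -0.05 with centring and -1.24 with library totals, so its size depended on the scaling.

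Acvrl1 measured 377 at 0 h (586 reads), 290 at 2 h (133 reads) and 376 at 4 h (692 reads). Its fold was 0.770 (0.633 to 0.932) at 2 h and 0.998 (0.892 to 1.12) at 4 h. With library totals these were 0.487 (0.400 to 0.589) and 0.564 (0.504 to 0.630), while centring moved the log2 difference at 4 h to 0.37, so the side at 4 h depended on the scaling. The summed value of the 7 endothelial markers was 120, 341 and 1669 at 0 h, 2 h and 4 h, most of it Kdr, while Tek held at most 1 read in a library. Other marker sums moved too, with 3726, 7259 and 5319 for neutrophil, 479, 924 and 1057 for fibroblast, 1027, 2583 and 1682 for megakaryocyte, and 71.4, 45.9 and 15.2 for B cell markers. The part of these markers in the LPS values was not tested. Bmpr2 measured 1084 (1685 reads), 878 (402 reads) and 1951 (3590 reads), with folds of 0.810 (0.725 to 0.904) at 2 h and 1.80 (1.70 to 1.91) at 4 h. The direction at 2 h turned with centring (log2 difference 0.01), and with library totals the fold at 4 h was 1.02.

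Smad1 measured 244 (379 reads), 271 (124 reads) and 353 (649 reads), a fold of 1.11 at 2 h and 1.45 (1.27 to 1.65) at 4 h, which turned to 0.702 and 0.817 with library totals. Smad3 measured 199 (309 reads), 135 (62 reads) and 21.7 (40 reads). It was at 0.681 (0.510 to 0.897) of the 0 h value at 2 h, and 9.14-fold lower (6.56 to 13.1) at 4 h, or 16.2-fold lower with library totals. With the authors' factors, Smad3 had the largest log2 difference of the 10 genes at 4 h, and its direction was the same under each scaling tried, whereas that of Smad1 was not.

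Smad6 measured 23.8 (37 reads), 45.9 (21 reads) and 10.3 (19 reads). It was 1.93-fold higher (1.07 to 3.38) at 2 h and 2.31-fold lower (1.29 to 4.24) at 4 h than at 0 h, and 1.22 and 0.245 times the 0 h level with library totals. The highest value thus lay at 2 h, in the shallowest library and on 21 reads. Smad7 measured 38.6 (60 reads), 37.1 (17 reads) and 22.3 (41 reads), with folds of 0.962 (0.526 to 1.67) and 0.577 (0.378 to 0.873). Its direction at 2 h turned with centring (log2 difference 0.26), and at 4 h it was lower under each scaling tried.

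All 3 ID genes were higher at both time points under each scaling. Id1 measured 4.50 (7 reads), 15.3 (7 reads) and 24.5 (45 reads), a fold of 3.39 (1.02 to 11.3) at 2 h and 5.43 (2.43 to 14.3) at 4 h. The same 7 reads at 0 h and 2 h come from libraries of unequal size, and with library totals the fold at 2 h was 2.15 with an interval of 0.642 to 7.17. Id2 measured 298 (463 reads), 1282 (587 reads) and 1437 (2644 reads), a fold of 4.30 (3.80 to 4.87) and 4.82 (4.37 to 5.34). Id3 measured 44.4 (69 reads), 297 (136 reads) and 352 (647 reads), a fold of 6.69 (4.97 to 9.07) and 7.92 (6.17 to 10.3). Most of the difference of Id2 and Id3 was present at 2 h, and the interval of Id1 at 4 h overlapped those of both other ID genes. With library totals the folds at 4 h were 3.07 for Id1, 2.73 for Id2 and 4.48 for Id3.

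**Figure D3:**
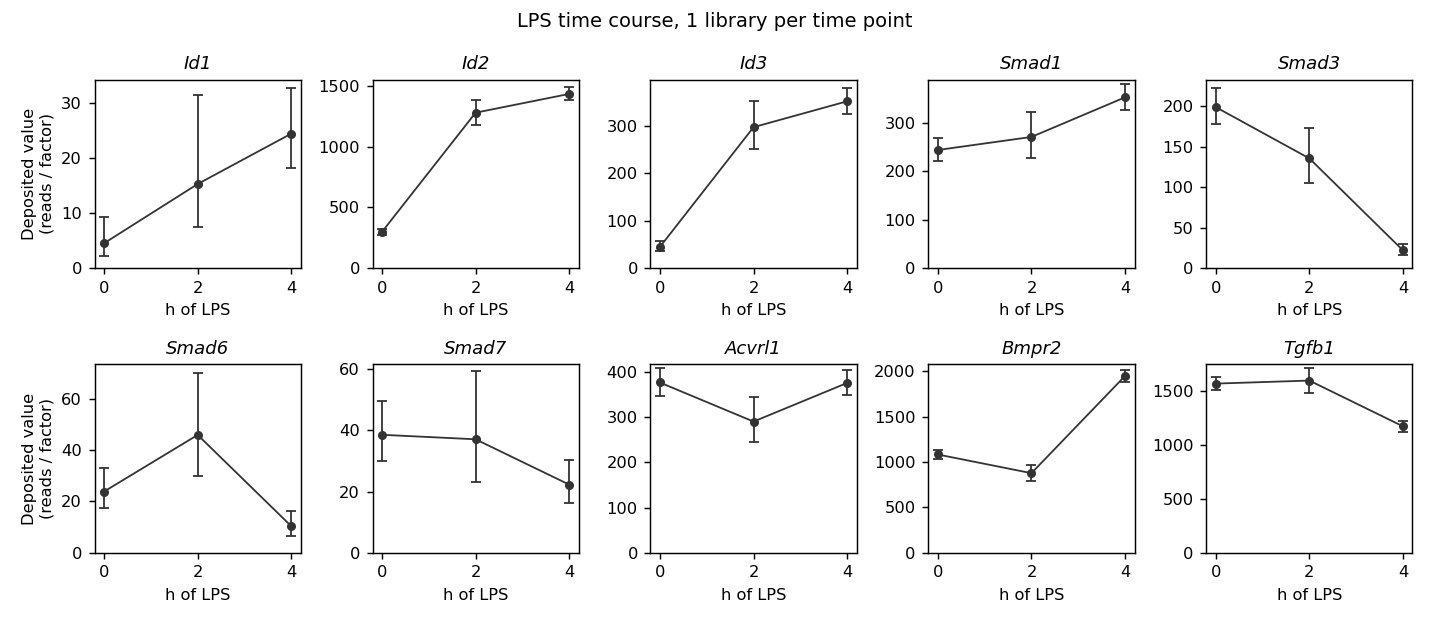
Deposited value (reads divided by the library's factor) of each of the 10 genes at 0, 2 and 4 h of LPS, 1 library per point, each panel with its own axis from 0. Bars are 95% Wilson intervals of the read share and cover counting error only. Id2 and Id3 are near their 4 h level by 2 h, and Smad6 is highest at 2 h.

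On log2(value + 1), 3 of the 10 genes were at least 2-fold higher and 0 at least 2-fold lower at 2 h, where 20.5% of 17854 genes were higher and 24.7% lower. At 4 h, 3 were higher (Id1, Id2 and Id3) and 2 lower (Smad3 and Smad6), where 22.2% and 23.6% of all genes were. With library totals, 3 were higher and 4 lower at 4 h. These shares are not read further because the genes were selected on this contrast too.

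Of the 112 genes of the lists, 76 had a mean value of at least 1 in the LPS table. Because the lists were chosen with earlier results known, their shares are a description and not an independent test. At 2 h, 21 were at least 2-fold higher and 16 lower (27.6% and 21.1%, beside 20.5% and 24.7% of all genes), and at 4 h 27 were higher and 18 lower. As shares, 35.5% were higher and 23.7% lower at 4 h, close to the 23.6% of all genes for the lower side and above the 22.2% for the higher side. With library totals the split at 4 h was 12 higher and 29 lower (15.8% and 38.2%, beside 13.1% and 44.2% of all genes), and with centring 34 higher and 12 lower (44.7% and 15.8%, beside 29.6% and 17.0%).

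Counts for single lists at 4 h are with the authors' factors, where 22.2% of all genes were higher and 23.6% lower. The split over all lists changed with the scaling, so these counts are not read further. The receptor list was divided. Eng, the co-receptor endoglin that pairs with ALK1, went from 354 to 1039 and 1880 (5.31-fold at 4 h, 4.86 to 5.83), and Acvr1, the type I receptor ALK2, from 88.8 to 225 and 327 (3.68-fold, 3.05 to 4.46). Tgfbr1, the type I TGF-beta receptor gene, went from 2091 to 828 and 264 (7.93-fold lower, 7.21 to 8.75), and Acvr2b, a type II activin receptor gene, from 42.5 to 19.7 and 10.9 (3.91-fold lower, 2.34 to 6.80). Of 10 receptor genes tested, 5 were higher and 3 lower at 4 h.

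Among 12 ligand genes, 4 were higher and 1 lower at 4 h, most of them on very few reads. Bmp10 and Gdf11 had 1 read each at 0 h and Amh had 0, and the lower gene, Lefty1, had 5 reads at 0 h and 2 at 4 h. Inhba, which encodes the activin A subunit, went from 3.22 (5 reads) to 48.0 and 162 (50.5-fold, 21.4 to 157). Among antagonists and latency or activation proteins, 10 of 19 were higher and 2 lower. Itgb8, the integrin chain that activates latent TGF-beta, went from 7.08 (11 reads) to 262 and 1235 (174-fold, 97.3 to 350.0). The activin antagonist gene Fst had 2 reads at 0 h and 287 at 4 h, a ratio of 121 (33.3 to 1006), and Dand5, which encodes a secreted antagonist, went from 30.9 to 8.73 and 5.43 (5.68-fold lower, 2.84 to 12.6).

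The E protein genes did not move together. Tcf4 went from 1816 to 2542 and 4031 (2.22-fold higher at 4 h, 2.13 to 2.32). Tcf3 went from 353 to 328 and 139 (2.54-fold lower, 2.19 to 2.96), and Tcf12 from 1397 to 640 and 581 (2.40-fold lower, 2.23 to 2.59). All 3 passed the 2-fold rule with the authors' factors, but on the log2 scale Tcf4 was at 0.33 with library totals and Tcf3 and Tcf12 were at -0.97 and -0.89 with centring. The same holds for Smad2, the 1 gene of the 3 other SMADs past the rule, which went from 549 to 764 and 1150 (2.09-fold, 1.93 to 2.27) and was at 0.24 on the log2 scale with library totals.

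Among 18 intracellular regulators, 4 were higher and 5 lower at 4 h. Skil went from 923 to 3699 and 3022 (3.27-fold, 3.09 to 3.47), and Pmepa1 from 9.65 to 30.6 and 34.8 (3.60-fold, 2.03 to 6.81). With library totals their log2 differences were 0.89 and 0.98. Wwp1, a ubiquitin ligase gene, went from 9680 to 3236 and 917 (10.6-fold lower, 10.0 to 11.1), and Ski, a repressor related to SnoN, from 1331 to 485 and 212 (6.26-fold lower, 5.62 to 7.0). Of 15 further target genes, 4 were higher and 5 lower, beside 22.2% and 23.6% of all genes. Klf10, an early TGF-beta response gene, went from 726 to 67.7 and 54.9 (13.2-fold lower, 10.8 to 16.4), and Runx2, a transcription factor gene of the bone lineage, from 66.9 to 32.8 and 12.5 (5.35-fold lower, 3.38 to 8.81).

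Set side by side, the experiments shared some directions and not others. They have no sample in common, and the deposited units differ, so only signs and sizes of log2 differences are put next to each other. Id1 was at 1.57 (2 h of LPS), 2.21 (4 h of LPS) and 2.57 (AAV-Shisa3), Id3 at 2.71, 2.96 and 1.66, and Id2 at 2.10, 2.27 and 0.56. The ID genes were higher in each contrast, with Id1 first among them under AAV-Shisa3 and Id3 first under LPS. Id1 rests on 7, 7 and 45 reads in the LPS libraries, and its fold intervals at both time points contain those of Id3. The order of Id1 and Id3 under LPS is therefore not settled. Smad3 was lower in each contrast, at -0.55, -3.14 and -0.66. Smad6 was at 0.92, -1.13 and 1.44, and Smad7 at -0.05, -0.77 and 0.80, so at 4 h of LPS both inhibitory SMAD genes lay on the other side of 0 from AAV-Shisa3. The difference between the contrasts was not tested, since the LPS libraries have no replicates.

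**Figure D4:**
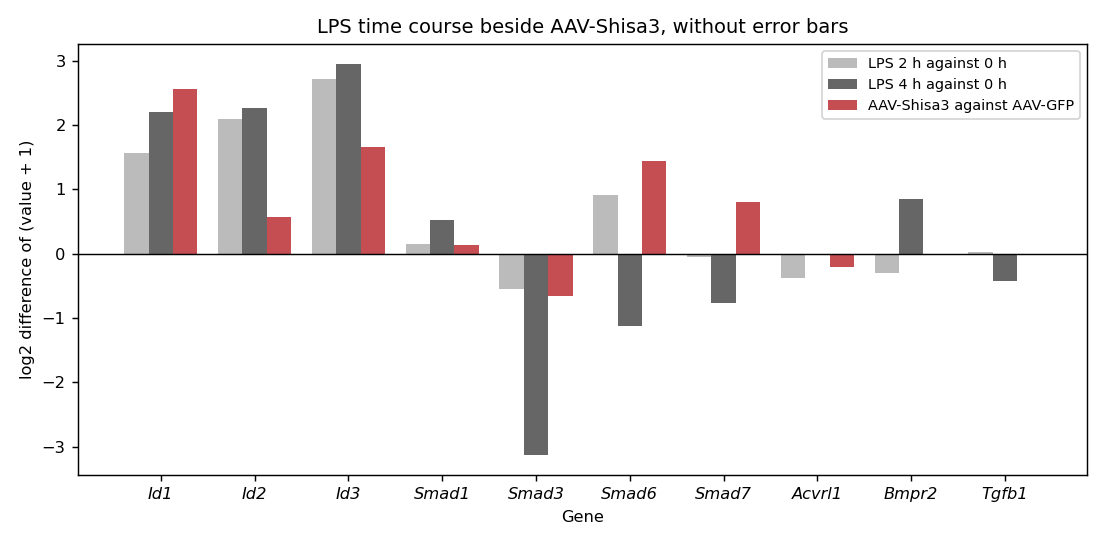
Log2 differences of (value + 1) for the 10 genes at 2 h and 4 h of LPS against 0 h (grey, 1 library each) and in AAV-Shisa3 against AAV-GFP (red, 2 samples per group). The bars of the ID genes point up and those of Smad3 point down in each contrast, while Smad6 and Smad7 point down at 4 h of LPS and up with AAV-Shisa3.

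The pathway genes called in the AAV experiment were read in the LPS table in the same way. Furin went from 1551 to 4411 and 4496 (2.90-fold at 4 h) and Skil was also higher, as both were with AAV-Shisa3, and Tgfbr2 went from 2200 to 1684 and 681 (3.23-fold lower). Tgfbi went from 6943 to 6442 and 3423 (2.03-fold lower at 4 h), the side opposite to AAV-Shisa3. At 2 h its direction turned with centring (log2 difference 0.21). Nedd4l went from 512 to 659 and 277 (1.85-fold lower at 4 h), and its 2 h log2 difference of 0.36 turned to -0.30 with library totals. Gdf15 went from 103 to 138 and 133, a fold of 1.29 (1.05 to 1.58) at 4 h, but with library totals its log2 differences turned to -0.24 at 2 h and -0.45 at 4 h, so no direction is given for it.

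Over all 7 samples, with log2 values centred within each table, the 5 genes with the pattern most like that of Id1 were Pgrmc1 (Pearson r = 0.991), Pomgnt1 (0.963), H13 (0.963), Rab32 (0.957) and Mrpl27 (0.952), among 8068 genes with a mean of at least 5 in both tables. Of the other members, Id3 had an r of 0.915, Id2 of 0.720, Smad1 of 0.686, Smad6 of 0.454, Tgfb1 of -0.339, Acvrl1 of -0.570 and Smad3 of -0.644, while Smad7 and Bmpr2 were under the mean and have no value. The points share library, depth and table, and with so many genes and so few samples these values are a description of likeness only. A high r does not mean a like size: Pgrmc1 went from 33.7 and 33.8 TPM to 40.3 and 40.0 TPM, and Rab32, a small GTPase gene, from 114 and 106 TPM to 197 and 200 TPM.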

How the data were processed

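RNA of 7 BMDM samples was measured by RNA-seq in 2 experiments. For LPS, the authors deposited a signal per gene, made of reads scaled with 1 factor in each library. In each library 100% of values were whole multiples of 1 step (tolerance 0.01 reads), so reads were recovered. A count test needs replicates and was not possible with 1 library per time point. For AAV, the authors deposited values that sum to 999778 to 999818 per sample and were read as TPM. This unit is inferred, and the depth is unknown. The submitters' processing notes name mm9. The aligner, the counting program and the tool behind the factors are not given in the sources used here.

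Of the design's branches for counts and for normalized values the latter was used: limma with a variance trend on log2(TPM + 1), a mean of at least 1 TPM, Benjamini-Hochberg adjustment over 11218 genes and a threshold of 0.05. LPS genes needed a mean value of at least 1. The members and lists were chosen with earlier results of these data known. Named genes were all members, each listed gene past the AAV threshold, in each list the 2 highest and the 2 lowest log2 differences at 4 h of LPS past 2-fold with a mean of at least 10, the transduced gene, and the 5 genes most like Id1. A gene that the rule names is not reported here. Smad2, Id4, Pmepa1, Wwp1, Itgav and the E proteins in AAV, and the LPS values of the AAV calls, were added after their values were seen. Alternatives were other scalings, pseudocounts, filters, no trend, a replicate block and leaving out each sample. The fit was tested on simulated data. Tools were Python 3.11.15 (scipy 1.17.1, pandas 2.3.3, numpy 2.4.6, matplotlib 3.10.9) and R 4.3.3 (edgeR 4.0.16, limma 3.58.1).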

Additional observations from a re-analysis of the deposited data

Results flagged for a closer look

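The members Smad6 and Bmpr2 lay on opposite sides of the 0 h value at the LPS time points with the authors' factors. Smad6 had a fold of 1.93 at 2 h and 0.434 at 4 h, on 37, 21 and 19 reads at 0 h, 2 h and 4 h. Bmpr2 had a fold of 0.810 at 2 h and 1.80 at 4 h, on 1685, 402 and 3590 reads. With library totals the folds of Smad6 were 1.22 (0.677 to 2.14) and 0.245 (0.133 to 0.437), and that of Bmpr2 at 4 h was 1.02 (0.959 to 1.08). With centring the log2 differences of Bmpr2 were 0.01 and 1.22, both above 0. Both time points share the 0 h library and each is 1 library, and the difference between time points was not tested.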

How the results depend on the processing

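For AAV-Shisa3 against AAV-GFP, the counts of 3 pathway genes higher and 3 lower became 0 and 0 without the variance trend (5 and 6 at an unadjusted p under 0.05) and 0 and 0 with no filter (7 and 6), 4 and 1 with centring, and 3 and 5 with at least 1 TPM in every sample. Leaving out each sample in turn gave 0 to 0 in both directions, with 3 to 7 higher and 5 to 7 lower at an unadjusted p under 0.05, where a lone sample is assumed to vary like the others. The labels give both groups replicate numbers 1 and 2, and same-numbered samples correlated at 0.188 in their deviations. The labels do not say whether same-numbered samples were handled together, and 2 pairs are too few to tell. With the replicate block, 4 rose and 5 fell. Over all genes, 424 rose and 851 fell with the block, beside 250 and 460 without it. The count of members with both AAV-Shisa3 samples below was 2 to 4 over the left-out samples, the 4 being without AAV-GFP replicate 1, when Bmpr2 and Tgfb1 joined Smad3 and Acvrl1.

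For LPS, members at least 2-fold lower at 2 h went from 0 to 2 with library totals. At 4 h they went from 2 to 1 with centring, 4 with library totals and 1 with a pseudocount of 5. Pathway genes higher went from 21 to 11 at 2 h and from 27 to 12 at 4 h with library totals. Those lower at 2 h went from 16 to 10 with centring and 9 with a pseudocount of 5, and those lower at 4 h from 18 to 29 with library totals and 12 with centring. Scaling by edgeR's TMM factors and the other filters turned no member's direction. Depth limits Id1, Smad6 and Smad7 most, with 7 to 60 reads per library.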
